A study of Mus musculus with 15 samples.

Results

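Skin taken at day 1 of a wounding time course was compared with skin taken at day 0, by RNA sequencing of C57BL/6 mice. The comparison rests on the 3 libraries labelled day 0 and the 3 labelled day 1, which are 6 of the 15 libraries of a course that runs on to day 3, 5 and 7. All genes were examined, and the members of 65 lists of genes of cell types, pathways and skin structures were followed in each library. Per the labels, both groups are skin cleaned of muscle and fat, both carry the same strain, and both carry the wound as their stress, day 0 included. For that reason the first group is called day 0 and not unwounded skin. Age, sex, the kind of wound and the distance of the sampled skin from it are not stated in the labels. Whether the 3 libraries of a day are 3 animals is not stated either, and the p-values then measure the spread of these samples alone, part of which may be technical.

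An injury to skin sets off alarm signals from damaged keratinocytes, fibroblasts and resident leukocytes. Interleukin-1, interleukin-6 and tumour necrosis factor act on neighbouring cells, which release chemokines and colony-stimulating factors, and neutrophils arrive from the blood ahead of most monocytes. Keratinocytes at the wound edge switch to stress keratins and start to migrate, while fibroblasts change the matrix they secrete and the proteases that cut it. Secreting cells also need more folding capacity in the endoplasmic reticulum, whose chaperones are raised together by the unfolded protein response.

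The 6 libraries held between 39536576 and 59637266 estimated counts, and 17136 genes passed the filter on low counts and were tested. Levels are given as CPM, a gene's share of its library's counts put on a common scale by the TMM method (trimmed mean of M-values), so they compare 1 gene between libraries and not genes with each other. Keratinocyte genes that define the tissue were present in every library, such as Krt14 with 2215, 923 and 1000.5 CPM at day 0 and 2549.9, 2276 and 5439.8 CPM at day 1. Skeletal muscle genes remained too. The 25 members of that list summed to 11616 to 18292 CPM in the day 0 libraries and 9967 to 14092 CPM in the day 1 libraries, and edgeR called none of the 25, with 3 at an unadjusted p under 0.05, 1 called by DESeq2 and 10 by limma-voom with sample weights. Mitochondrially encoded genes took 5.29% to 6.30% of the counts at day 0 and 6.98% to 7.53% at day 1, with no overlap.

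Day 0 replicate 1 stood apart from the other day 0 libraries. On the first principal component, which held 50.8% of the variance between the 6 libraries, it lay at -15.8, between day 0 replicates 2 and 3 at 65.4 and 72.0 and the day 1 libraries at -55.2, -34.4 and -31.9. Its log CPM values correlated with those of the day 1 libraries at 0.962 to 0.980 and with those of the other day 0 libraries at 0.952 and 0.965. These correlations are over genes, which are not independent replicates.

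**Figure D1:**
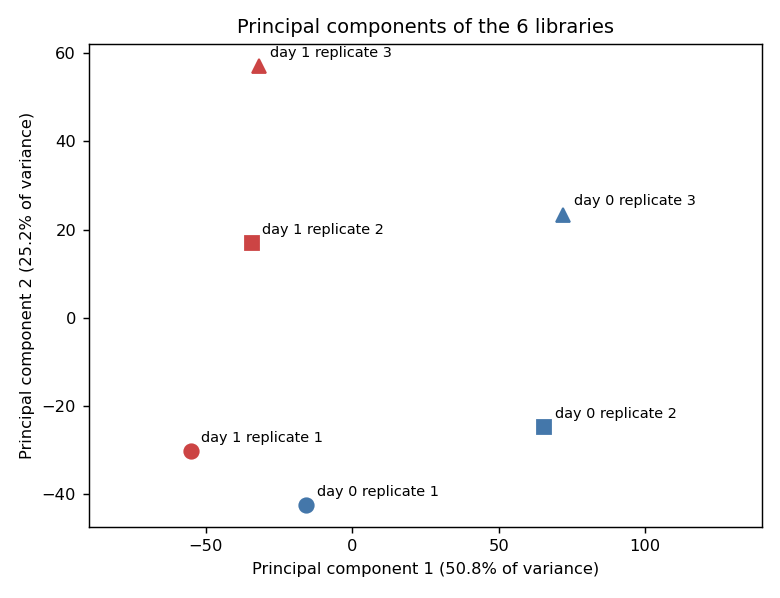
Principal component 1 (50.8% of the variance) against principal component 2 (25.2%) of log CPM values of the 6 libraries, 1 point per library, blue for day 0 and red for day 1, with the shape giving the replicate number. Day 0 replicate 1, at -15.8 on component 1, lies nearer to the day 1 libraries than to day 0 replicates 2 and 3.

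Day 0 replicates 2 and 3 differed from the other libraries in another respect. At least 4-fold outside all 4 other libraries stood 75 genes, 25 higher and 50 lower in both, while no gene stood so far out in day 0 replicate 1 alone. The comparison of the days below called 21 of the 25 lower at day 1 and 7 of the 50 higher. Over all genes tested, 3.36% were called lower and 4.22% higher. The same counts picked these genes, so their calls are not independent of that choice. Among the 50, Skint3 had 93.1, 0.278 and 0.218 CPM at day 0 and 64.5, 75.3 and 73.1 CPM at day 1. Aadacl4 had 252, 11.6 and 11.7 CPM at day 0 and 147, 176 and 165 CPM at day 1. The cause was not tested. Many of the 25 were copies of abundant genes. When their GENCODE M21 transcripts were searched against transcripts of coding genes, 16 matched another gene at 90% identity or more over at least 80% of their length. Gm13394, which matched the glycolytic enzyme gene Gapdh at 99.9% identity, had 1.01, 1009 and 1086 CPM at day 0 and 1.28, 4.95 and 1.45 CPM at day 1. Gapdh itself had 923, 371 and 384 CPM at day 0 and 1250.1, 1021 and 1301 CPM at day 1. The sum of both was 924, 1380.4 and 1469.9 CPM at day 0 and 1251, 1026 and 1302 CPM at day 1, so the libraries of both days overlapped in the sum while Gapdh alone showed no overlap. Ncoa4, a ferritin receptor, showed the same arrangement with Gm6768, which matched it at 99.9% identity. Ncoa4 had 151, 14.1 and 16.5 CPM at day 0 and 126, 136 and 166 CPM at day 1, and the sum with its copy was 151, 167 and 162 CPM at day 0 and 126, 137 and 166 CPM at day 1. Genes with near-identical copies were therefore also summed over the copies, in a fit added after these values were seen, and the sum is given below for some of them. In that fit, 72 of the 108 called genes with a copy kept their call and direction, 34 lost the call and 2 were merged into a gene with the opposite call.

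**Figure D2:**
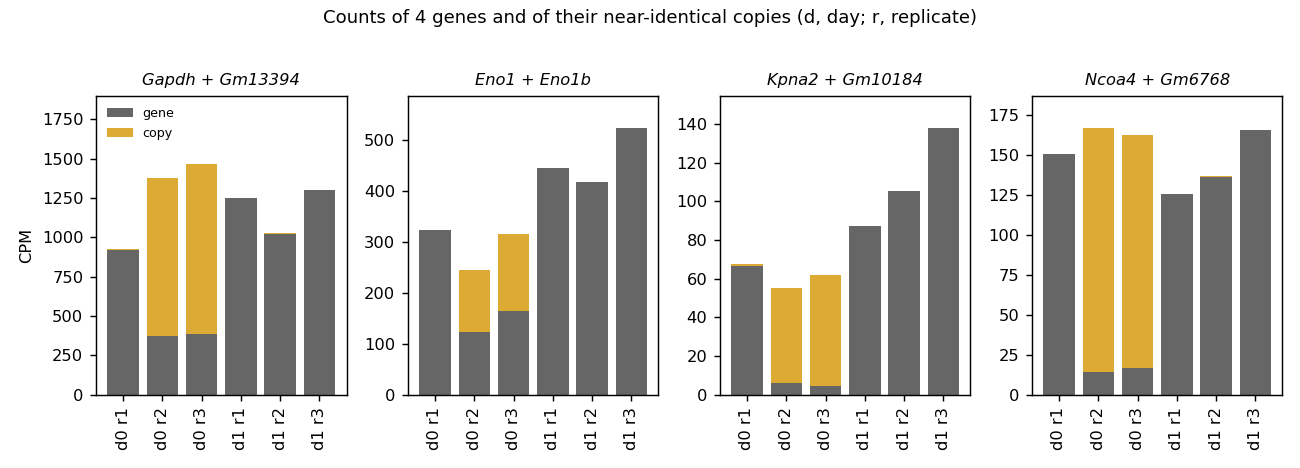
CPM of Gapdh, Eno1, Kpna2 and Ncoa4 (grey) with that of a near-identical copy stacked on top (yellow) in the 6 libraries (d, day; r, replicate), 1 bar per library. Only day 0 replicates 2 and 3 show a visible share of counts on the copy, 1009 and 1086 CPM for Gm13394.

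Of the genes tested, 723 rose from day 0 to day 1 and 576 fell (edgeR's quasi-likelihood test, two-sided, with a Benjamini-Hochberg adjusted p under 0.05), which is 4.22% and 3.36% of all genes tested and 7.58% in both directions. At least 2-fold higher were 258 (1.51%) and at least 2-fold lower 294 (1.72%). The 3 and 3 libraries did not overlap for 1272 of the 1299 called genes. Over all genes tested, 19.8% lay higher at day 1 without overlap and 18.0% lower, and the median log2 fold change was -0.01. The calls depended on single libraries. Leaving out day 0 replicate 1 gave 1345 higher and 1066 lower genes (7.71% and 6.11% of those tested in that fit), leaving out day 0 replicate 2 gave 33 calls in all, and leaving out any other library of the pair of days gave 137 to 426. Day 0 replicate 1 was the day 0 library nearest to day 1 in 572 of the 723 genes that rose and in 451 of the 576 that fell. In the description below, a call therefore means the fit of all libraries, and most calls did not survive the loss of day 0 replicate 2.

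Called in the fit of all libraries and again in each fit that left out 1 of the 6 libraries were 33 genes (0.193% of those tested), 28 higher and 5 lower. Ptx3, the long pentraxin that binds microbes and matrix, had the smallest p of them. Its levels were 9.19, 4.301 and 4.43 CPM at day 0 and 119, 112 and 106 CPM at day 1. The lowest day 1 library lay 11.6-fold above the highest day 0 library (log2 fold change 4.23 ± 0.37, adjusted p = 9.68e-04). Fgf7, the keratinocyte growth factor made by dermal fibroblasts, had 26.8, 26.8 and 26.6 CPM at day 0 and 48.02, 59.96 and 47.4 CPM at day 1. All 3 day 0 libraries were close to 27 CPM and all day 1 libraries lay higher (log2 fold change 0.95 ± 0.10, adjusted p = 0.00213). Also in this set were receptors and ligands of inflammation, namely Il1r1, Il4ra, Il17ra, Csf3r, Tnfsf11 and Tnfsf14. Tnfsf14, the cytokine LIGHT, had 3.84, 2.505 and 3.31 CPM at day 0 and 12.2, 11.1 and 11.7 CPM at day 1. Tnfsf11, the osteoclast factor RANKL, had 0.298, 0.304 and 0.496 CPM at day 0 and 4.65, 3.97 and 4.34 CPM at day 1. Neither gene's libraries overlapped between the days. Il17ra, the shared receptor chain for interleukin-17, rose by 1.21 ± 0.15 on the log2 scale from 30.9 ± 4.41 to 71.6 ± 10.5 CPM (SD, n = 3).

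The 5 genes that fell in every one of these fits were Nrep, Susd1, Smim1, Smpd3 and Arntl. Nrep, a neuronal regeneration protein also made by fibroblasts, had 144, 193 and 174 CPM at day 0 and 33.2, 49.3 and 59.6 CPM at day 1. Day 0 replicate 1 was the lowest of its day and still 2.42-fold above the highest day 1 library (log2 fold change -1.85 ± 0.19, adjusted p = 0.00213). Susd1, a sushi-domain protein, had 14.97, 16.3 and 15.5 CPM at day 0 and 7.13, 7.79 and 7.18 CPM at day 1 (log2 fold change -1.08 ± 0.11, adjusted p = 0.00213). Smpd3, a neutral sphingomyelinase, had 50.96, 68.5 and 100.4 CPM at day 0 and 16.5, 17.2 and 23.6 CPM at day 1 (log2 fold change -1.94 ± 0.28, adjusted p = 0.00673). For both, all day 0 libraries were above all day 1 libraries.

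**Figure D3:**
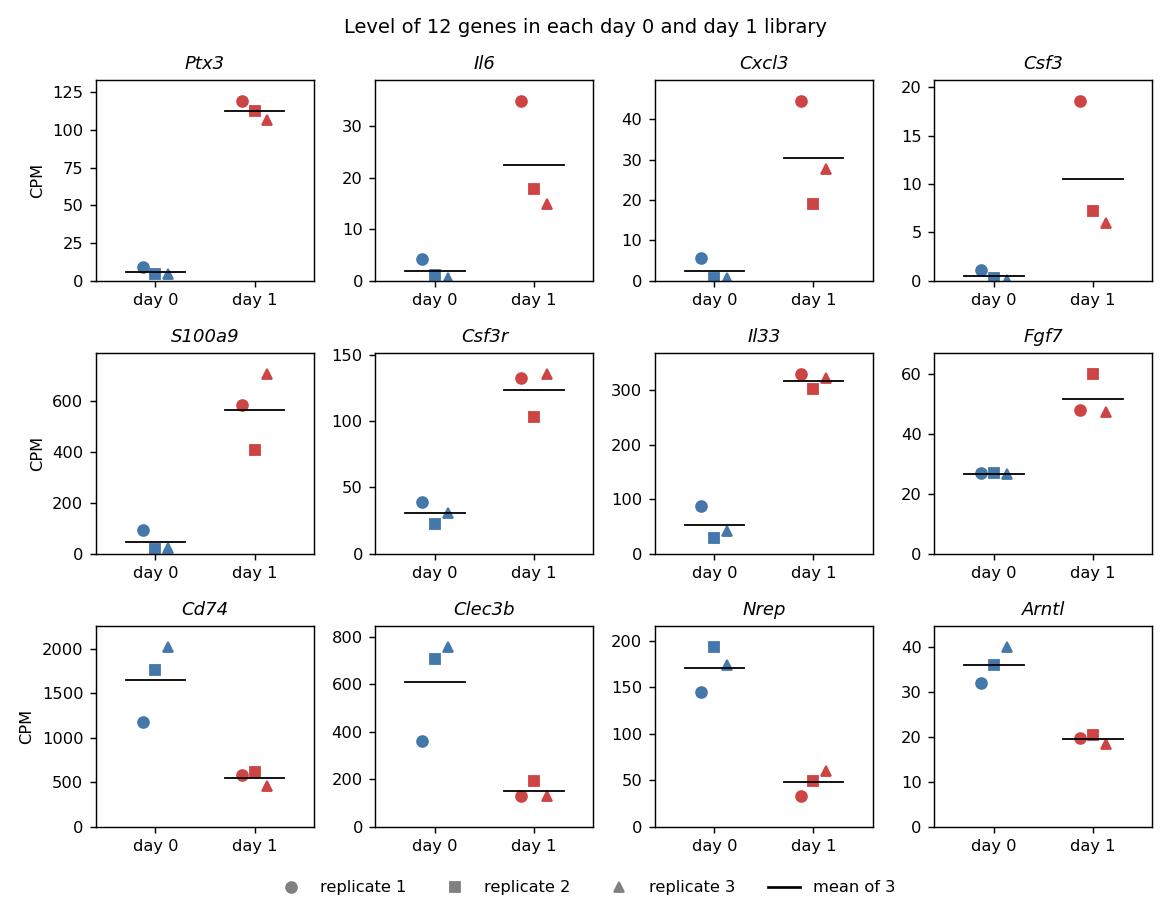
Scaled CPM of 12 genes in each library, linear axis from 0, blue for day 0 and red for day 1, with the shape giving the replicate number and a black line at the mean of 3. None of the 12 overlaps between the days, and day 0 replicate 1 (blue circle) is the day 0 library nearest to day 1 for genes such as Cxcl3, S100a9, Cd74 and Clec3b.

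Large rises were those of serum amyloid genes and Fgf23. Saa1 and Saa2, liver and epithelial acute-phase proteins, are near-identical, so their counts can be split between them. Saa2 had 0.708, 0.0759 and 0.0993 CPM at day 0 and 14.3, 23.3 and 6.43 CPM at day 1, and Saa1 had 0.913, 0.253 and 0.476 CPM at day 0 and 17.7, 26.3 and 10.1 CPM at day 1. Summed, they had a log2 fold change of 5.26 ± 0.98 (edgeR adjusted p = 0.0138). Day 1 replicate 3 was the lowest of the day 1 libraries for both genes and above every day 0 library. Fgf23, a phosphate-regulating hormone known mainly from bone, had 0.951, 0.0253 and 0.0794 CPM at day 0 and 28.2, 10.7 and 9.44 CPM at day 1, with day 1 replicate 1 the highest (log2 fold change 5.46 ± 1.18, adjusted p = 0.0211). Among large falls, Sult1e1, the oestrogen sulfotransferase, had 7.102, 18.7 and 5.16 CPM at day 0 and 0.125, 0.0507 and 0.385 CPM at day 1 (log2 fold change -5.78 ± 1.33, adjusted p = 0.0259). Each day 0 library was above each day 1 library, with replicate 2 the highest. Wnt2, a Wnt ligand, fell by 3.52 ± 0.71 on the log2 scale, and Inmt, a methyltransferase, by 3.21 ± 0.72.

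Among interleukin-1 family genes, 4 of the 19 tested rose and none fell, with a median log2 fold change of 0.67. Without day 0 replicate 1 there were 9. Il33, an alarmin stored in nuclei of barrier cells and fibroblasts, had 88.0, 27.9 and 40.6 CPM at day 0 and 329, 302 and 322 CPM at day 1. The lowest day 1 library was 3.43-fold above day 0 replicate 1, the highest of its day (log2 fold change 2.61 ± 0.41, adjusted p = 0.00913). The signalling receptor gene Il1r1 had 88.1, 63.1 and 64.3 CPM at day 0 and 199, 185 and 152 CPM at day 1, also without overlap (log2 fold change 1.31 ± 0.18, adjusted p = 0.00515). Its co-receptor Il1rap rose by 0.71 ± 0.20. Il1b, the ligand made by myeloid cells, had 86.1, 13.8 and 12.9 CPM at day 0 and 448, 239 and 235 CPM at day 1. Every day 1 library was above every day 0 library, but the spread left it uncalled (log2 fold change 3.03 ± 0.90, adjusted p = 0.0594). Without day 0 replicate 1 its log2 fold change was 4.53.

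The interleukin-6 family held 6 genes that rose of 19 tested, with a median of 0.39. Il6 had 4.101, 0.987 and 0.496 CPM at day 0 and 34.8, 17.8 and 14.9 CPM at day 1. The lowest day 1 library was 3.63-fold above the highest day 0 library, which was day 0 replicate 1 (log2 fold change 3.59 ± 0.64, adjusted p = 0.0127). Oncostatin M, a cytokine of neutrophils and macrophages, and its receptor rose as well. Osm had 7.01, 1.09 and 1.39 CPM at day 0 and 31.1, 21.7 and 14.99 CPM at day 1 (log2 fold change 2.83 ± 0.69, adjusted p = 0.0314), and Osmr rose by 1.27 ± 0.27. Il11, a fibroblast-derived member, rose by 1.83 ± 0.38. Downstream of these receptors, Stat3 rose by 0.66 ± 0.19 and its feedback inhibitor Socs3 by 2.05 ± 0.38. The common receptor chain Il6st had 452, 394 and 401 CPM at day 0 and 728, 662 and 472 CPM at day 1, without overlap, but was not called (log2 fold change 0.58 ± 0.22, adjusted p = 0.118).

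In the interleukin-10 and interleukin-20 family, some of whose members act on keratinocytes, 1 of 10 rose. Il19 had 0.485, 0.177 and 0.218 CPM at day 0 and 4.46, 6.604 and 3.37 CPM at day 1 (log2 fold change 4.01 ± 0.76, adjusted p = 0.0151). Il24, with 1.36, 0 and 0.0993 CPM at day 0 and 7.06, 4.07 and 5.24 CPM at day 1, showed no overlap and did not pass (log2 fold change 3.45 ± 1.01, adjusted p = 0.0558). Both cytokine genes were low in each day 0 library.

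Tumour necrosis factor signalling and its feedback inhibitors contributed 6 genes that rose of 26 and none that fell. Tnfaip6, a hyaluronan-binding protein induced by inflammation, rose by 1.81 ± 0.40, the nuclear inhibitor Nfkbid by 1.42 ± 0.39, the RNase gene Zc3h12a by 0.66 ± 0.13 and the receptor gene Tnfrsf1a by 0.68 ± 0.17. Tnf itself had 4.72, 2.302 and 3.49 CPM at day 0 and 10.98, 5.13 and 6.63 CPM at day 1, higher in each day 1 library and not called (log2 fold change 1.11 ± 0.40, adjusted p = 0.104). Among immediate early genes, 4 of 30 rose, with 11 when day 0 replicate 1 was left out. Ier3, a survival gene induced by stress, had 31.5, 14.5 and 13.8 CPM at day 0 and 103, 61.1 and 59.7 CPM at day 1 (log2 fold change 1.91 ± 0.35, adjusted p = 0.0137). Fos, with 339.6, 66.1 and 27.8 CPM at day 0 and 365, 274 and 262 CPM at day 1, overlapped between the days.

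The list of chemokines and growth factors that attract or expand neutrophils also holds their receptors. Of its 17 members tested, 7 rose, with a median log2 fold change of 2.01. They were the ligand genes Csf3, Cxcl3, Ppbp and Pf4 and the receptor genes Cxcr1, Cxcr2 and Csf3r. Without day 0 replicate 1, 11 did. Promoters of 3 CXC chemokine genes of chromosome 5 (Cxcl1, Cxcl2 and Cxcl3) and of Il6 are shown. They were picked because all 4 hold the letters GGGNNTTTCC of a binding site for NF-kappaB, the factor that interleukin-1 and tumour necrosis factor activate. These letters, on either strand, were in 1.73% of the 12551 tested genes with a promoter entry (250 bases before to 50 after the start, RefSeq, GRCm38.p6). They were in 1 of 6 called members of this list with an entry (Cxcl3), and not in the called chemokine genes Ppbp and Pf4. They were in 1 of 5 called members of the interleukin-6 family (Il6), in 0 of 6 called members of the tumour necrosis factor list, and in 2.0% of all genes called higher. Cxcl1 and Cxcl2 were not called. A match of letters is a description and not a shown site. The windows were at chr5:90891136-90891203, plus strand, chr5:90903782-90903850, plus strand, chr5:90786008-90786057, plus strand, and chr5:30013050-30013099, plus strand, with the matches in capitals.
Cxcl1: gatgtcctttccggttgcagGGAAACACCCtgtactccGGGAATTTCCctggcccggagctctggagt
Cxcl2: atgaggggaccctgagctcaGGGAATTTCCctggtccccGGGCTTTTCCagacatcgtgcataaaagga
Cxcl3: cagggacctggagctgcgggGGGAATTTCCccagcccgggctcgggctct
Il6: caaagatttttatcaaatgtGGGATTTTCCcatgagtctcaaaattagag

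Of these chemokine ligands for CXCR2, Cxcl3 had 5.65, 0.531 and 0.655 CPM at day 0 and 44.5, 19.1 and 27.7 CPM at day 1. Day 1 replicate 2 was the lowest of its day and 3.37-fold above day 0 replicate 1 (log2 fold change 3.73 ± 0.87, adjusted p = 0.0275). Cxcl1 had 10.8, 0.43 and 0.615 CPM at day 0 and 75.3, 38.8 and 26.4 CPM at day 1, and Cxcl2 had 36.2, 4.199 and 2.88 CPM at day 0 and 228, 81.8 and 84.2 CPM at day 1. For both, all day 1 libraries were higher, yet neither was called, with log2 fold changes of 3.56 ± 1.01 (edgeR adjusted p = 0.0529) and 3.18 ± 1.28 (edgeR adjusted p = 0.139). Without day 0 replicate 1 these were 6.47 and 5.22. Cxcl5, made by epithelia, had 21.01, 0.278 and 0.754 CPM at day 0 and 209, 121 and 133 CPM at day 1 (log2 fold change 4.39 ± 1.42, adjusted p = 0.0801). The platelet chemokine genes Ppbp and Pf4 rose by 3.22 ± 0.66 and 0.62 ± 0.12.

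Csf3, which encodes the granulocyte colony-stimulating factor, had 1.06, 0.253 and 0.0595 CPM at day 0 and 18.6, 7.16 and 5.96 CPM at day 1. Its highest value was in day 1 replicate 1, and all day 1 libraries lay above day 0 (log2 fold change 4.499 ± 0.99, adjusted p = 0.0218). The receptor gene Csf3r, found on neutrophils, had 39.2, 22.6 and 30.4 CPM at day 0 and 133, 103 and 136 CPM at day 1 (log2 fold change 2.01 ± 0.25, adjusted p = 0.005). The receptor genes Cxcr1 and Cxcr2 rose by 3.62 ± 1.02 and 3.53 ± 0.79. Cxcr2 was among the genes at least 4-fold lower in day 0 replicates 2 and 3 than in all other libraries, with 19.3, 2.23 and 2.24 CPM at day 0 and 107, 78.02 and 91.4 CPM at day 1.

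CC chemokines and their receptors gave 4 of 32 higher and none lower, with a median of -0.02. Ccl2 and Ccl7, which draw CCR2-bearing monocytes, had log2 fold changes of 1.86 ± 0.48 and 2.09 ± 0.51. Ccl2 had 74.9, 16.9 and 22.4 CPM at day 0 and 167, 146 and 102 CPM at day 1, higher in each day 1 library. Ccr1, a receptor of neutrophils and monocytes, rose by 2.28 ± 0.37. Ccl5, which draws T cells, had 5.704, 6.07 and 30.6 CPM at day 0 and 4.01, 2.75 and 3.81 CPM at day 1, lower in each day 1 library and not called (log2 fold change -2.003 ± 0.61, adjusted p = 0.0616). Ccl24, which draws eosinophils, had log2 fold change -1.27 ± 0.39, adjusted p = 0.062. Of 16 other chemokine genes 1 rose, Cxcl12, the fibroblast ligand of CXCR4, with 195, 209 and 262 CPM at day 0 and 509, 502 and 628 CPM at day 1 (log2 fold change 1.2996 ± 0.26, adjusted p = 0.016).

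Neutrophil markers rose in 16 of 27 cases, none fell, and the median log2 fold change was 2.24. Several of them are also in other lists here, such as Csf3r and Cxcr2 above. In bulk tissue, more cells of a type and more RNA per cell cannot be told apart. The summed level of the list was 518 to 1107 CPM in the day 0 libraries, highest in replicate 1, and 2078 to 4194 CPM in the day 1 libraries, highest in replicate 3. S100a9 and S100a8, the calprotectin subunits that are also made by activated keratinocytes, rose together. S100a9 had 91.2, 17.5 and 22.9 CPM at day 0 and 583, 409.7 and 706 CPM at day 1 (log2 fold change 3.69 ± 0.95, adjusted p = 0.0391), and S100a8 rose by 3.23 ± 0.77. The neutrophil surface gene Ly6g had 0.149, 0.0506 and 0.0198 CPM at day 0 and 1.46, 1.54 and 1.41 CPM at day 1. Its day 0 levels were all below 0.2 CPM (log2 fold change 4.25 ± 0.95, adjusted p = 0.023). Mmp8, the neutrophil collagenase, had 4.604, 1.57 and 2.52 CPM at day 0 and 21.7, 21.4 and 27.8 CPM at day 1, with no overlap (log2 fold change 3.02 ± 0.42, adjusted p = 0.00515).

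The stefin A genes, cysteine protease inhibitors of neutrophils, rose in 4 of 5 cases, but are near-identical copies. Summed, Stfa2 with Stfa2l1 had a log2 fold change of 3.698 and BC100530 with Stfa1 2.304, both called. The oxidase gene Ncf4 and the granule enzyme gene Mpo had log2 fold changes of -0.26 ± 0.33 and -0.20 ± 0.55, with overlap between the days, and were not called.

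Acute-phase and antimicrobial genes rose in 9 of 27 cases with a median of 1.33. The letters TTGCNNAA, read by C/EBP factors that drive acute-phase and granulocyte genes, were in the promoter of 6 of the 8 called members with an entry (Saa1, Saa2, Lcn2, Ptx3, Steap4 and Slpi) and of 5 of 13 called neutrophil markers, against 9.07% of all tested genes and 11.5% of genes called higher. Saa1 and Saa2 are near-identical. Of the 18 motifs searched, others were in more of the 13 neutrophil markers, GAGGAAG in 6 (13.4% of all tested) and CCAAT in 8 (38.0%). Shown are the windows of 3 neutrophil genes, S100a9 (chr3:90695930-90695971, minus strand), Mmp8 (chr9:7558390-7558437, plus strand) and Ly6g (chr15:75155011-75155056, plus strand), with the match in capitals.
S100a9: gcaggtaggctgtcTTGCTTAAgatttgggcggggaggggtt
Mmp8: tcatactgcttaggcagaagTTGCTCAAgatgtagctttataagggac
Ly6g: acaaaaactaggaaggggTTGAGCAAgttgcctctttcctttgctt

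Lcn2, which binds bacterial siderophores, had 22.9, 3.997 and 5.498 CPM at day 0 and 131, 114 and 113 CPM at day 1 (log2 fold change 3.46 ± 0.73, adjusted p = 0.02). The antiprotease gene Slpi had 22.6, 4.098 and 5.12 CPM at day 0 and 101, 53.2 and 60.9 CPM at day 1, with day 0 replicate 1 far above the other day 0 libraries (log2 fold change 2.76 ± 0.76, adjusted p = 0.0475). Hp, haptoglobin, rose by 1.72 ± 0.29. The beta-defensin gene Defb4 was higher in every day 1 library and not called (log2 fold change 3.401 ± 1.04, adjusted p = 0.0632).

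Pattern recognition genes rose in 8 of 29 cases. Clec4d and Clec4e, C-type lectins for fungal and mycobacterial lipids and for dying cells, rose by 2.36 ± 0.45 and 2.17 ± 0.53. Nlrp3, the inflammasome sensor, had 13.7, 2.96 and 5.54 CPM at day 0 and 56.1, 24.998 and 21.7 CPM at day 1 (log2 fold change 2.21 ± 0.52, adjusted p = 0.028). Cd14, the lipopolysaccharide co-receptor, had 57.6, 44.5 and 45.8 CPM at day 0 and 225, 123 and 139.8 CPM at day 1 (log2 fold change 1.72 ± 0.33, adjusted p = 0.0152). Both were higher in each day 1 library. Of 26 interferon-stimulated genes edgeR called none, 3 had an unadjusted p under 0.05, DESeq2 called 1 and limma-voom 8, and the median was 0.09. The member with the largest difference, Rsad2, had log2 fold change 0.96 ± 0.34, adjusted p = 0.102. Among the interferon-gamma-inducible GTPases, Gbp10 alone of 15 was called, lower, and its call was lost when it was summed with its near-identical copy Gm43302 (log2 fold change -1.07, edgeR adjusted p = 0.096).

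Monocyte and macrophage markers rose in 5 of 20 cases. Chil3, a chitinase-like protein of activated myeloid cells, had 44.5, 7.06 and 6.47 CPM at day 0 and 202, 169 and 151 CPM at day 1. It was 1 of the genes at least 4-fold lower in day 0 replicates 2 and 3 than elsewhere (log2 fold change 3.17 ± 0.79, adjusted p = 0.0359). Spp1, osteopontin, had 137, 40.02 and 59.6 CPM at day 0 and 440.2, 245 and 374 CPM at day 1 (log2 fold change 2.16 ± 0.48, adjusted p = 0.023), and the scavenger receptor gene Msr1 rose by 1.31 ± 0.23. Pan-macrophage genes were not called. Adgre1 had a log2 fold change of -0.61 ± 0.29, Csf1r -0.83 ± 0.28 and Cd68 0.40 ± 0.20. The summed list was at 3683 to 5321 CPM at day 0 and 4350.4 to 5292 CPM at day 1, which overlap.

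Markers of resident dermal macrophages went lower in 4 of 22 cases and rose in none (median -0.55). Folr2, a folate receptor of resident macrophages, had 121, 244 and 268 CPM at day 0 and 73.8, 84.9 and 108 CPM at day 1 (log2 fold change -1.24 ± 0.33, adjusted p = 0.0391). Timd4, a receptor for dying cells, fell by 1.82 ± 0.45 on the log2 scale. Cd209f and Cd209g also fell, but the Cd209 genes resemble each other and their counts may be split. In the list for alternative macrophage activation, 4 of 15 members rose and 1 fell. Arg1, arginase, had 12.99, 13.2 and 18.5 CPM at day 0 and 43.2, 39.3 and 89.3 CPM at day 1 (log2 fold change 1.94 ± 0.49, adjusted p = 0.035). Il4ra had 173, 92.8 and 107 CPM at day 0 and 473, 478 and 364 CPM at day 1 (log2 fold change 1.82 ± 0.25, adjusted p = 0.00526), and the partner chain Il13ra1 rose by 0.81 ± 0.15. The transcription factor gene Irf4 fell by 1.97 ± 0.38. Retnla, a resistin-like product of interleukin-4 signalling, was lower at day 1 in each library, with 106, 226 and 263 CPM at day 0 and 18.6, 12.2 and 4.44 CPM at day 1. It was not called (log2 fold change -4.08 ± 1.14, adjusted p = 0.0513).

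Antigen presentation genes of MHC class II fell in 4 of 13 cases, with a median of -0.997. Cd74, the invariant chain, had 1175, 1763 and 2022 CPM at day 0 and 586, 616 and 454 CPM at day 1. The lowest day 0 library, replicate 1, was 1.91-fold above the highest day 1 library (log2 fold change -1.58 ± 0.33, adjusted p = 0.0181). H2-Aa, H2-Ab1 and H2-Eb1, the chains of the surface molecules, had log2 fold changes of -1.54, -1.44 and -1.61. Their transactivator Ciita had log2 fold change -0.997 ± 0.35, adjusted p = 0.0977 and was not called. Among 17 Langerhans and dendritic cell markers 1 fell, Cd83, by 1.77 ± 0.36. Cd207, the Langerhans cell lectin, had 14.8, 14.4 and 11.1 CPM at day 0 and 8.29, 6.76 and 3.89 CPM at day 1, lower in each day 1 library and not called (log2 fold change -1.09 ± 0.48, adjusted p = 0.167).

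T and NK cell markers fell in 9 of 35 cases and rose in none, with a median of -1.17. The list summed to 196 to 319 CPM at day 0 and 126 to 158 CPM at day 1. Cd3e, a chain of the T cell receptor complex, had 3.45, 5.82 and 6.49 CPM at day 0 and 1.91, 2.35 and 1.39 CPM at day 1 (log2 fold change -1.48 ± 0.37, adjusted p = 0.0342). Cytotoxic genes were among those that fell, with Nkg7 at -1.89 ± 0.44, Prf1 at -1.704 ± 0.43 and the NK cell factor Eomes at -2.29 ± 0.63. The regulatory T cell gene Foxp3 had log2 fold change -0.62 ± 0.57, adjusted p = 0.515. Of B and plasma cell markers 6 of 15 fell. Igkc and Ighm, the constant segments of immunoglobulin chains, fell by 2.23 ± 0.62 and 1.93 ± 0.37, and Jchain by 2.73 ± 0.71. Of 15 mast cell and eosinophil markers 2 rose and none fell. Hdc, which makes histamine, rose by 3.09 ± 0.67, and Fcer1a, a chain of the IgE receptor, by 1.59 ± 0.39. Hdc was among the genes at least 4-fold lower in day 0 replicates 2 and 3 than in all other libraries. Its levels were 26.3, 5.64 and 4.27 CPM at day 0 and 147, 80.8 and 80.4 CPM at day 1. The mast cell proteases Cma1 and Cpa3 had log2 fold changes of 0.17 and 0.53.

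Calls among wound-edge keratinocyte genes depended on day 0 replicate 1. Of 28 tested, 4 rose with all libraries and 17 without that library, and the median was 1.46. The stress keratin gene Krt16 had 371, 19.9 and 31.3 CPM at day 0 and 522, 372 and 893 CPM at day 1 (log2 fold change 2.08 ± 0.86, adjusted p = 0.145). Day 0 replicate 1 was close to the lowest day 1 library and far above the other day 0 libraries, and without it the log2 fold change was 4.54. Krt6a and Krt6b are close relatives. Krt6a had 707, 54.3 and 95.2 CPM at day 0 and 1245, 931 and 2078 CPM at day 1 and Krt6b 553, 17.5 and 57.7 CPM at day 0 and 883, 750.3 and 2091 CPM at day 1, in each case with day 0 replicate 1 far above the other day 0 libraries and below every day 1 library. The summed list was 4148 CPM in day 0 replicate 1, 1268 and 1414 CPM in replicates 2 and 3, and 4585 to 8679 CPM at day 1.

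The 4 genes that rose with all libraries were Slpi, Tnc, Plaur and Lama3. Lama3 rose by 1.16 ± 0.31, with overlap between the days. Tnc, tenascin C, had 252, 41.3 and 67.2 CPM at day 0 and 403, 364 and 597 CPM at day 1 (log2 fold change 1.92 ± 0.53, adjusted p = 0.0475). Plaur, the urokinase receptor of migrating cells, had 25.9, 12.1 and 12.9 CPM at day 0 and 61.3, 38.8 and 44.2 CPM at day 1 (log2 fold change 1.504 ± 0.29, adjusted p = 0.0151). Ligands of the EGF receptor that activate keratinocytes were not called. Areg had 9.67, 1.52 and 1.89 CPM at day 0 and 16.9, 12.4 and 17.7 CPM at day 1 (log2 fold change 1.84 ± 0.74, adjusted p = 0.135), and Hbegf had 23.8, 4.48 and 5.002 CPM at day 0 and 37.6, 24.4 and 27.5 CPM at day 1 (log2 fold change 1.42 ± 0.50, adjusted p = 0.0946). Both were higher in each day 1 library. The only called member of the EGF receptor list was Lrig1, an inhibitor of the receptor, which fell by 0.55 ± 0.14.

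Genes of the differentiated epidermis were called at about the share of all genes tested, of which 4.22% rose and 3.36% fell. Of 26 epidermal keratin and adhesion genes, 1 rose, the desmosomal cadherin gene Dsg3 (1.403 ± 0.36), and 6 rose without day 0 replicate 1. Of 31 genes of the cornified envelope and barrier, 1 fell, the lipoxygenase gene Aloxe3 (-0.73 ± 0.20). The late differentiation gene Lor, loricrin, had 756, 689 and 562 CPM at day 0 and 500.1, 437 and 561 CPM at day 1, and was not called (log2 fold change -0.42 ± 0.36, adjusted p = 0.476). Hair follicle genes summed to 1318 to 3443 CPM at day 0 and 920.4 to 2039.9 CPM at day 1, which overlap, and 1 of 31 was called. That gene was Cd34, which fell by 1.32 ± 0.31 and also marks fibroblasts and endothelium. Of 14 melanocyte genes edgeR and DESeq2 called none, none had an unadjusted p under 0.05, and limma-voom called 1. Of 17 sebaceous gland genes, Awat2, a wax synthase, and Fads6 fell by 1.33 ± 0.36 and 0.72 ± 0.15.

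Collagen genes held 2 higher and 2 lower calls of 27 tested. Their summed level was 59800.0 to 69040.0 CPM at day 0 and 24811 to 49118 CPM at day 1, without overlap. The fibrillar genes Col1a1, Col1a2 and Col3a1, none of them called, made up 79.5% to 92.4% of it. Col1a1 had 16514, 18660.0 and 15331 CPM at day 0 and 7246, 11683 and 4442 CPM at day 1 (log2 fold change -1.11 ± 0.41, adjusted p = 0.106), and Col3a1 had a log2 fold change of -0.73 ± 0.34. Col8a1, a short-chain collagen of remodelling vessels, rose by 1.53 ± 0.30, and Col15a1, of basement membrane zones, fell by 1.07 ± 0.19. Matricellular genes went up in 4 of 32 cases. Thbs1, thrombospondin 1 of platelets and injured tissue, had 262, 57.4 and 67.1 CPM at day 0 and 852, 504 and 463 CPM at day 1 (log2 fold change 2.23 ± 0.50, adjusted p = 0.023). Vcan, the versican proteoglycan, rose by 1.16 ± 0.22, while Ogn, the leucine-rich proteoglycan osteoglycin, fell by 1.22 ± 0.28. Fn1 had 574, 927 and 1142 CPM at day 0 and 374, 388 and 374 CPM at day 1, lower in each day 1 library and not called (log2 fold change -1.22 ± 0.35, adjusted p = 0.0532).

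Proteases that cut matrix changed in both directions. Of 24 metalloproteinase and inhibitor genes tested, Mmp8, Mmp9 and Timp1 rose and Mmp23 and Timp3 fell. Timp1 had 90.3, 23.98 and 32.9 CPM at day 0 and 181, 176 and 173 CPM at day 1 (log2 fold change 1.85 ± 0.51, adjusted p = 0.0459), and Timp3 fell by 0.78 ± 0.14. Mmp3, Mmp10 and Mmp13, made by fibroblasts and wound-edge keratinocytes, had log2 fold changes of 1.07, 1.85 and 1.29 and were not called. Without day 0 replicate 1, 10 members of the list rose and 5 fell. Of 17 ADAMTS proteases tested, 4 rose and 1 fell. Adamts1, Adamts4, Adamts5 and Adamts9, which cut versican and aggrecan, rose by 1.57, 1.03, 1.01 and 1.57, and Adamts10 fell by 0.94 ± 0.24. Hyaluronan genes rose in 4 of 16 cases and fell in none. Cemip, which breaks down hyaluronan, had 3.299, 0.81 and 1.15 CPM at day 0 and 23.2, 12.5 and 19.7 CPM at day 1 (log2 fold change 3.39 ± 0.64, adjusted p = 0.0148). The receptor gene Cd44 rose by 0.98 ± 0.16, and the synthase gene Has3 had log2 fold change 1.95 ± 0.60, adjusted p = 0.0645.

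Fibroblast genes of resting and adventitial dermis fell in 8 of 29 cases and rose in 2, with a median of -0.87. Clec3b, tetranectin, had 361, 706 and 756 CPM at day 0 and 128, 191 and 127 CPM at day 1 (log2 fold change -2.03 ± 0.39, adjusted p = 0.0156). Pi16, a marker of adventitial fibroblasts, had 181, 266 and 541 CPM at day 0 and 109.7, 92.9 and 104 CPM at day 1 (log2 fold change -1.69 ± 0.46, adjusted p = 0.0457). In both, day 0 replicate 1 was lower than the other day 0 libraries and above every day 1 library. Igfbp6, Dpp4, Abca8a and Dpt fell as well, by 1.67, 1.44, 1.54 and 1.01. Pdgfra, the platelet-derived growth factor receptor of the same cells, rose, with 198, 157 and 169 CPM at day 0 and 470.3, 482 and 318 CPM at day 1 (log2 fold change 1.28 ± 0.20, adjusted p = 0.00911). Myofibroblast genes were not called apart from Tpm4. Acta2, smooth muscle actin, had 199, 105 and 100.2 CPM at day 0 and 149, 162 and 158 CPM at day 1, and the days overlapped.

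**Figure D4:**
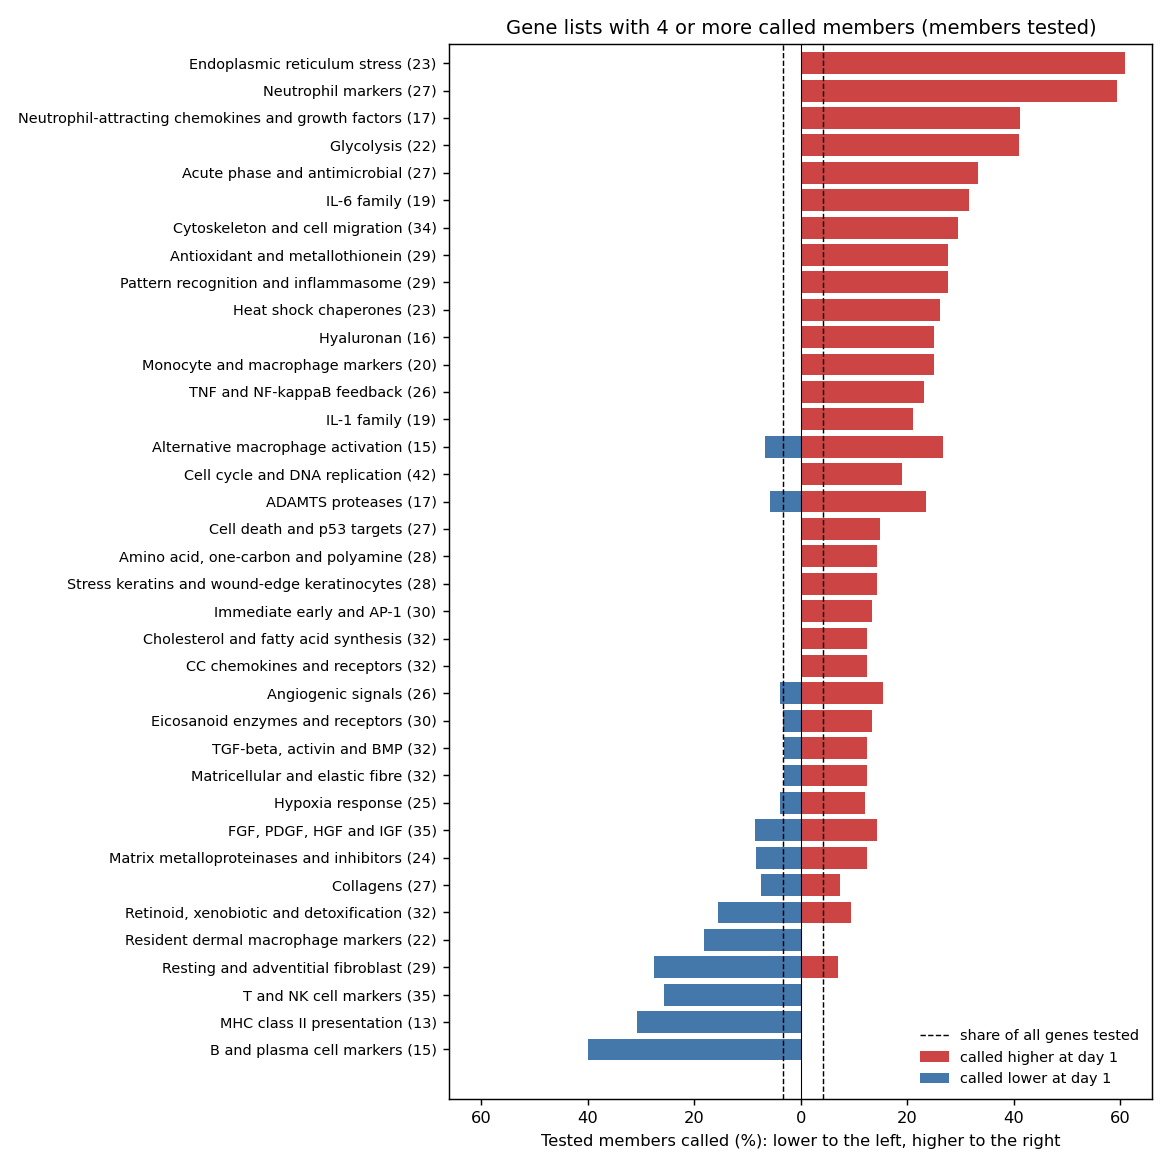
Percent of the tested members of each list called higher (red, to the right) or lower (blue, to the left) at day 1, for lists with 4 or more called members, with the number tested in parentheses and dashed lines at the share of all genes tested (4.22% higher, 3.36% lower). Endoplasmic reticulum stress genes (14 of 23) and neutrophil markers (16 of 27) have the highest share called higher and B and plasma cell markers (6 of 15) the highest share called lower.

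Growth factors changed in both directions. Of 35 FGF, PDGF, HGF and IGF genes tested, 5 rose and 3 fell. Of 32 TGF-beta, activin and BMP genes, 4 rose and 1 fell. Over all genes tested, 4.22% rose and 3.36% fell. Hgf, which acts on epithelia and vessels, rose by 1.01 ± 0.25, and the activin chain genes Inhba and Inhbb by 1.35 ± 0.35 and 1.24 ± 0.23. Inhba had 3.69, 1.59 and 2.799 CPM at day 0 and 8.59, 4.9996 and 7.11 CPM at day 1. Tgfb2 fell by 1.49 ± 0.37, while Tgfb1 and Tgfb3 had log2 fold changes of 0.27 and -0.47 and were not called. Insulin-like growth factor binding proteins fell in 3 cases. Igfbp5 had 592, 1148 and 1722 CPM at day 0 and 274, 334 and 425 CPM at day 1 (log2 fold change -1.75 ± 0.41, adjusted p = 0.0274), and Igfbp2 fell by 1.16 ± 0.23. Igf1 had a log2 fold change of -0.28 ± 0.19. Of 37 Wnt genes, Wnt2 and the antagonist gene Frzb fell and Wnt16 rose, by 1.61 ± 0.27. Wnt2 had 4.44, 13.4 and 17.1 CPM at day 0 and 1.09, 0.777 and 1.17 CPM at day 1.

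Of 26 angiogenic signal genes tested, 4 rose and 1 fell, with a median of 0.27, beside 4.22% and 3.36% of all genes tested. Adm, adrenomedullin, a vasodilator raised by hypoxia, had 6.08, 7.99 and 4.05 CPM at day 0 and 65.4, 50.1 and 21.1 CPM at day 1 (log2 fold change 2.91 ± 0.74, adjusted p = 0.0351). Apln, Vegfd and Angpt2 rose by 1.52, 1.08 and 0.99. Vegfa had 34.3, 33.3 and 35.6 CPM at day 0 and 44.3, 37.2 and 42.2 CPM at day 1, not called (log2 fold change 0.26 ± 0.11, adjusted p = 0.144). Angptl7 had the largest fall of the list, 2.87, 15.9 and 27.5 CPM at day 0 and 1.16, 1.05 and 2.401 CPM at day 1, and is among the genes that stood at least 4-fold apart in day 0 replicates 2 and 3. Of 24 endothelial genes tested, 2 rose and none fell. Selp, the P-selectin that captures leukocytes, rose by 1.77 ± 0.25, and Pdpn, podoplanin, of lymphatics and of activated fibroblasts and keratinocytes, rose by 2.03 ± 0.41. Sele had log2 fold change 0.78 ± 0.34, adjusted p = 0.167, and Pecam1, a marker of all endothelium, had a log2 fold change of 0.43 ± 0.21. Neither was called. In the Schwann cell list 1 of 23 genes was called, S100b, which fell by 1.32 ± 0.21. The myelin gene Mbp had a log2 fold change of -0.99 and was not called.

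The endoplasmic reticulum stress list, which holds chaperones and regulators, had the largest share of calls of the 65 lists, 14 of 23 higher and none lower, at modest size (median 0.55). Hspa5, the chaperone BiP, had 528, 344 and 392 CPM at day 0 and 1008, 961 and 719.9 CPM at day 1 (log2 fold change 1.09 ± 0.20, adjusted p = 0.0148). Pdia4, a disulfide isomerase, had 122, 91.1 and 99.2 CPM at day 0 and 201, 201 and 178 CPM at day 1 (log2 fold change 0.89 ± 0.12, adjusted p = 0.00515). Manf, a secreted stress protein, had 84.3, 55.96 and 63.5 CPM at day 0 and 147, 151 and 112 CPM at day 1 (log2 fold change 1.01 ± 0.17, adjusted p = 0.0113). All 3 had no overlap between the days. Of the 14 genes that rose, only Pdia4 kept its call in all 6 fits lacking 1 library. Hspa5 and Manf kept theirs in 3 of these 6 fits. Hyou1, Pdia6, Sdf2l1, Creld2, Hsp90b1 and Calr, which fold or retain proteins in the same compartment, rose by 0.93, 0.87, 0.81, 0.80, 0.79 and 0.77. The regulators of the response were not called. Atf4 had a log2 fold change of 0.13 ± 0.14, Atf6 0.08 ± 0.08, Xbp1 0.35 ± 0.13 and the death-promoting Ddit3 -0.06 ± 0.17.

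**Figure D5:**
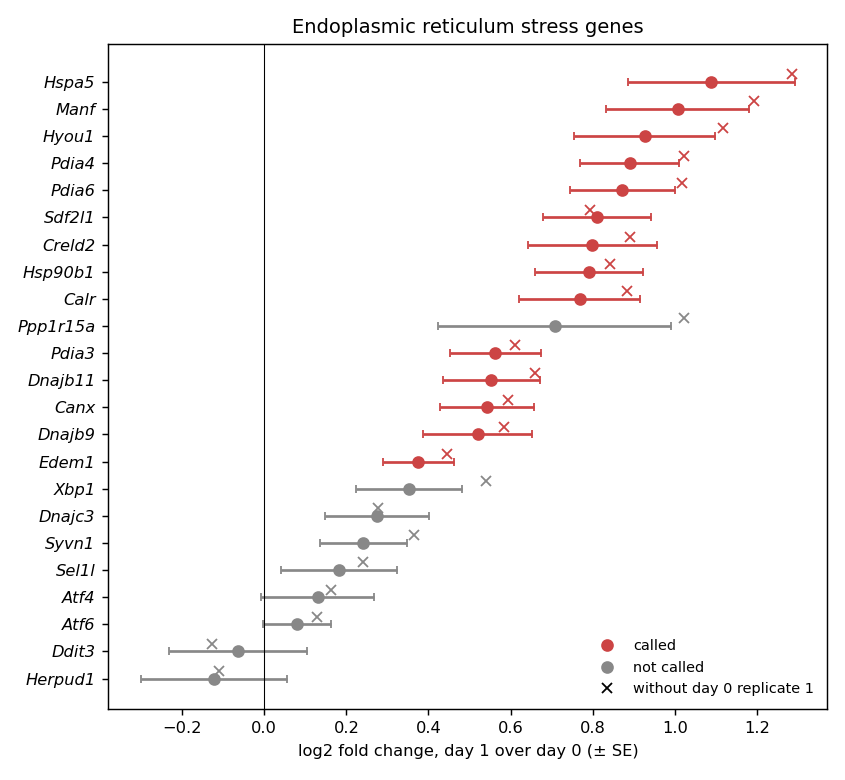
Log2 fold change from day 0 to day 1 (circles, bars ± SE) of the 23 genes of the endoplasmic reticulum stress list, red where called and grey where not, with crosses for the value without day 0 replicate 1. The 14 called genes include the chaperone Hspa5 and the isomerases Pdia4 and Pdia6, and the regulators Atf4, Atf6, Ddit3 and Xbp1 are grey.

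Promoters of 6 called members are printed for a long motif found in each of them. The endoplasmic reticulum stress element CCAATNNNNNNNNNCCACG, on either strand, was in 6 of the 12 called members with a RefSeq promoter entry, in 2 of the 8 members not called (Dnajc3 and Syvn1), and in 20 of the 12551 tested genes with an entry (0.159%). It contains the CCAAT box, which on its own was in 38.0% of them. The Hspa5 promoter is given whole, from 250 bases before the start to 50 after it (GRCm38.p6, chr2:34771840-34772139, plus strand), and windows of 5 others around their matches, with the element in capitals, on the gene's own strand. They were Hsp90b1 at chr10:86705513-86705676, minus strand, Calr at chr8:84847055-84847113, minus strand, Canx at chr11:50325780-50325838, minus strand, Pdia6 at chr12:17266471-17266529, plus strand, and Creld2 at chr15:88819500-88819558, plus strand.
Hspa5: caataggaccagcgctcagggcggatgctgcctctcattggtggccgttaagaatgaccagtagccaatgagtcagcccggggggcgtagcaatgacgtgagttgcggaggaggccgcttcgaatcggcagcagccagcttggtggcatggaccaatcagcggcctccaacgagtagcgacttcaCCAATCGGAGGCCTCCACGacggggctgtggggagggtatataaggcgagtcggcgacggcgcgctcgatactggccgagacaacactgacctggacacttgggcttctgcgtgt
Hsp90b1: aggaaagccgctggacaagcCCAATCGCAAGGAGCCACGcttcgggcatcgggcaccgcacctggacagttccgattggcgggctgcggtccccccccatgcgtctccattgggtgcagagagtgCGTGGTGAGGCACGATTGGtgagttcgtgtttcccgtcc
Calr: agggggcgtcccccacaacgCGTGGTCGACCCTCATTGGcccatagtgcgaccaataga
Canx: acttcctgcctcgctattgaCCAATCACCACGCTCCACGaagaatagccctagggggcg
Pdia6: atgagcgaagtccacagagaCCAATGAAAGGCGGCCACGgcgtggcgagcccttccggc
Creld2: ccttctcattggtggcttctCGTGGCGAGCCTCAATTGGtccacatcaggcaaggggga

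Heat shock chaperones of the cytosol and mitochondria rose in 6 of 23 cases and fell in none (median 0.34). Hsp90aa1 had 276, 215 and 234 CPM at day 0 and 486, 505 and 439 CPM at day 1 (log2 fold change 0.98 ± 0.19, adjusted p = 0.0153), a value that the sum with its copies left at 0.98. The heat-inducible gene Hspa1a had a log2 fold change of -0.42 ± 0.31, with overlap. Antioxidant and metal-binding genes rose in 8 of 29 cases. Slc7a11, the cystine importer, had 9.23, 2.38 and 4.84 CPM at day 0 and 45.7, 27.9 and 29.6 CPM at day 1 (log2 fold change 2.64 ± 0.51, adjusted p = 0.0156). Nqo1, a quinone reductase, had 11.8, 9.13 and 8.67 CPM at day 0 and 20.7, 18.4 and 21.2 CPM at day 1 (log2 fold change 1.02 ± 0.14, adjusted p = 0.00515). The metallothionein gene Mt1 rose by 2.003 ± 0.47, the zinc importer gene Slc39a14 by 1.901 ± 0.36, Hmox1, which degrades haem, by 1.42 ± 0.25, and the mitochondrial dismutase gene Sod2 by 0.99 ± 0.18.

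Glycolysis genes rose in 9 of 22 cases and in 8 of 22 when near-identical copies were summed. The glucose importers Slc2a1 and Slc2a3 rose by 1.22 ± 0.22 and 1.84 ± 0.36. The lactate exporter gene Slc16a3 had 36.9, 33.3 and 43.1 CPM at day 0 and 105, 76.1 and 83.4 CPM at day 1 (log2 fold change 1.22 ± 0.16, adjusted p = 0.005). Gapdh, counted higher above, was not called as a sum over its copies (log2 fold change 0.29 ± 0.13, edgeR adjusted p = 0.178). Eno1 kept its call in the sum but went from 1.18 to 0.65. Pkm rose by 0.83 ± 0.14, and Ldha, with log2 fold change 0.43 ± 0.13, adjusted p = 0.0558, was not called. Slc16a3 and Pgk1 hold 2 matches each to ACGTG, read by the hypoxia-inducible factors, a short motif found in 23.7% of all tested promoters. Of 25 hypoxia response genes Adm, Hmox1 and Hif1a rose and Egln1 fell. Hif1a, the oxygen-regulated factor itself, had 193, 127 and 138 CPM at day 0 and 333, 322 and 332 CPM at day 1 (log2 fold change 1.11 ± 0.15, adjusted p = 0.00515).

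Of 29 respiratory chain genes of the nucleus edgeR and DESeq2 called none, 2 had an unadjusted p under 0.05 and limma-voom called 5, with a median of -0.01. Of 13 mitochondrially encoded genes, 3 rose and none fell, and without day 0 replicate 1, 1 rose and 1 fell. mt-Nd1 had 3642, 4030.3 and 3579.9 CPM at day 0 and 5550.1, 5401 and 4978 CPM at day 1 (log2 fold change 0.50 ± 0.14, adjusted p = 0.04999). Its call was kept in 0 of the fits lacking 1 library. Sterol and fatty acid synthesis genes rose in 4 of 32 cases and in 17 without day 0 replicate 1. Their summed level was 9385 CPM in day 0 replicate 1, 5203 and 4974 CPM in replicates 2 and 3 and 6649.7 to 8526 CPM at day 1. Sebaceous gland genes, which share lipid enzymes with this list, summed to 7290, 4069 and 3728 CPM in the day 0 libraries, and their part in the difference was not tested.

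Of 32 genes for retinoid and foreign compound handling, 3 rose and 5 fell. Of 21 genes of the glucocorticoid and steroid response, 1 rose and 1 fell. Over all genes tested, 4.22% rose and 3.36% fell. Cyp1b1, a monooxygenase of oestrogens and retinoids, had 58.7, 47.3 and 53.2 CPM at day 0 and 152, 146 and 151 CPM at day 1 (log2 fold change 1.495 ± 0.16, adjusted p = 0.00216). The retinol dehydrogenase gene Rdh10 rose by 1.24 ± 0.18, and the retinal reductase gene Dhrs3, which works the other way, fell by 0.88 ± 0.18. Hsd11b1, which regenerates active glucocorticoid, rose by 0.84 ± 0.23, while Tsc22d3, a target of the hormone, had log2 fold change -1.07 ± 0.52, adjusted p = 0.202. Among 30 eicosanoid genes, 4 rose and 1 fell. The prostaglandin E synthase gene Ptges rose by 0.75 ± 0.18 and Hpgd, which inactivates prostaglandins, fell by 1.65 ± 0.29. Ptgs2, the inducible cyclooxygenase, had 24.2, 3.72 and 3.75 CPM at day 0 and 96.5, 42.5 and 39.003 CPM at day 1, higher in each day 1 library and not called (log2 fold change 2.49 ± 0.78, adjusted p = 0.0682).

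Of 19 circadian clock genes tested, 16 were not called, 2 activators fell and 1 repressor rose, with a median log2 fold change of 0.05. Over all genes tested, 3.36% fell and 4.22% rose. Arntl had 32.02, 35.9 and 39.9 CPM at day 0 and 19.8, 20.3 and 18.5 CPM at day 1 (log2 fold change -0.88 ± 0.12, adjusted p = 0.00526), and its partner Npas2 fell by 1.19 ± 0.27. Bhlhe40, a repressor that is also induced by hypoxia, rose by 1.01 ± 0.15, and the output gene Dbp had 23.9, 16.6 and 8.26 CPM at day 0 and 30.02, 28.7 and 31.1 CPM at day 1 (log2 fold change 0.88 ± 0.47, adjusted p = 0.245). The hour of sampling is not given in the sources used here.

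Replication genes rose in 8 of 42 cell cycle cases. The helicase subunits Mcm2, Mcm3, Mcm4, Mcm5 and Mcm6 rose by 0.92, 0.83, 0.79, 1.03 and 0.86, and Mcm5 had 29.4, 20.5 and 25.1 CPM at day 0 and 42.7, 52.2 and 58.2 CPM at day 1. The cyclin gene Ccne2, of the entry into S phase, rose by 1.08 ± 0.29. Mitotic genes were not called. Mki67 had 74.02, 61.8 and 75.5 CPM at day 0 and 60.6, 102 and 148 CPM at day 1, with overlap, and Ccnb1 a log2 fold change of 0.65 ± 0.39. Ribosome biogenesis genes rose in 3 of 30 cases (Npm1, Ncl and Heatr1, which assemble or transcribe ribosomal RNA), and in 12 without day 0 replicate 1. Genes of the actin cytoskeleton and migration rose in 10 of 34 cases, among them Rnd1 by 1.43 ± 0.28, Msn by 0.73 ± 0.14 and Cfl1 by 0.72 ± 0.18. Death genes rose in 4 of 27 cases, including the necroptosis pair Ripk3 and Mlkl by 0.99 ± 0.20 and 0.85 ± 0.20. Of 27 chromatin genes, Tet1, Cbx7 and Ezh1 fell, by 1.19, 1.15 and 0.48.

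Day 1 was also set against the later wounded skin, as the mean of day 3, 5 and 7 (9 libraries). The contrast sets no day 0 level against day 1, but its fit shares the scaling, filter and spread estimate of all 15 libraries. There 1039 genes were higher at day 1 and 512 lower, 6.06% and 2.99% of those tested, and 957 and 478 in a fit of the 12 libraries of day 1, 3, 5 and 7 alone. Both comparisons share the day 1 libraries, so values are only placed side by side. Neutrophil-attracting chemokines, growth factors and their receptors were higher at day 1 in 12 of 17 cases, with a median log2 difference of 1.99. Neutrophil markers were higher in 16 of 27. Ptx3 had means of 23.3, 5.28 and 8.21 CPM at day 3, 5 and 7, and a log2 difference of 3.49 ± 0.24 (edgeR adjusted p = 4.82e-05). Il6 had means of 3.897, 0.692 and 0.577 CPM (log2 difference 4.27 ± 0.44, edgeR adjusted p = 2.45e-04). Cxcl1, not called against day 0, had means of 12.99, 1.47 and 0.834 CPM and a log2 difference of 4.21 ± 0.69 (edgeR adjusted p = 0.00353). Il1b had means of 139, 27.8 and 9.61 CPM (log2 difference 3.2004 ± 0.62, edgeR adjusted p = 0.00822).

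Genes of the endoplasmic reticulum stress list, the regulator Atf6 among them, were higher at day 1 than later in 16 of 23 cases, and Hspa5 had means of 449, 465 and 629 CPM (log2 difference 0.82 ± 0.16). Interferon-stimulated genes, none of which was called against day 0, were higher at day 1 than later in 15 of 26 cases, with a median difference of 0.75. Rsad2 had means of 36.5, 23.3 and 13.5 CPM, against 54.3 CPM at day 0 and 105 CPM at day 1. Collagens were lower at day 1 than later in 9 of 27 cases and higher in none. Of the MHC class II genes, Cd74 had means of 889, 892 and 960.4 CPM there (log2 difference -0.73 ± 0.27, edgeR adjusted p = 0.116). Monocyte and macrophage markers were higher at day 1 than later in 13 of 20 cases.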

How the data were processed

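The estimated counts per gene symbol were deposited by the authors as 1 file per library and come from kallisto 0.43 (per the submitters' processing notes). Its index, annotation, build and strand setting: not given in the sources used here, so counts of overlapping genes and of near-identical copies can be split between them. Per the labels' protocols, polyadenylated RNA libraries were made with the VAHTS mRNA-seq V2 kit, and per the series' design text they were sequenced on a HiSeq X-Ten. Each file held 30307 rows. The 26 rows named as calendar dates, 0.157% to 0.179% of the counts in the 6 libraries, were left out. The values were whole numbers, so rounding changed nothing. The common biological coefficient of variation was 30.9%, and levels below 1 CPM carry a large counting error besides.

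Counts were scaled by TMM, filtered with edgeR's filterByExpr (minimum count 10, 17136 of 30281 named genes), and fitted by edgeR 4.0.16 (R 4.3.3) with a robust quasi-likelihood model over all 15 libraries with 5 groups. Adjusted p-values are Benjamini-Hochberg over the whole table, and under 0.05 counted as a call. Means are ± SD over 3 libraries and log2 fold changes ± SE (fold change over the root of F). On counts simulated for day 1 against day 0 over 17136 genes, of which 200 were changed, 40% of the 2-fold and 83% of the 4-fold changes were called, with 3 unchanged genes called. Each gene was drawn independently there, so no simulated library stood apart over many genes and no counts moved between copies. Those rates therefore cannot be carried over to the real libraries. Alternatives used DESeq2 1.42.0, limma 3.58.1, other scaling and filters, a replicate term and left-out libraries. Near-identical genes were found with blastn 2.17.0+ and minimap2 2.31-r1302 on GENCODE M21 transcripts. Such a transcript was found for 29926 of the 30281 named genes. Genes whose longest transcripts aligned at 95% identity over 80% of the shorter one were summed.

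The comparison, the 65 gene lists and the alternatives were chosen with earlier results of these data known, and no list was tested as a set. Of 1486 names in the lists, 1471 were in the files and 1455 were tested. Genes were named by rule: the 10 called genes at each end of the fold changes (at least 2-fold, 5 CPM in the higher group, no overlap, ordinary symbols), the 10 at each end by p among those called with each library left out, the 8 called at each end of the difference in CPM, up to 4 called members of each list by size (or 2 by p where none was called), and, in ligand and receptor lists, members of at least 5 CPM. Which of these are described, and 73 further genes named with their values, mostly other list members, were chosen after the values were seen. The promoter search covered 18 motifs on both strands.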

Additional observations from a re-analysis of the deposited data

How the results depend on the processing

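The number of genes called against day 0 (1299, of them 552 at least 2-fold) was within 1.5 times of itself with scaling by the median of ratios (1307), without the filter (983), in a fit of the 6 libraries alone (1552) and with near-identical copies summed (1313, of them 542 at least 2-fold). DESeq2 called 2784 (915 at least 2-fold) and limma-voom with sample weights 6487 (1553). Leaving out 1 library gave 33 to 2411 calls (25 to 1090 at least 2-fold): of the day 0 libraries, the fit lacking replicate 1 gave 2411, that lacking replicate 2 gave 33 and that lacking replicate 3 gave 142, and of the day 1 libraries 137, 312 and 426. When day 0 was represented by replicate 1 alone, its spread assumed equal to that of the other groups, edgeR called 0 genes (0 at least 2-fold), with 1324 at an unadjusted p under 0.05. The share of calls that were higher went from 55.7% to 84.8% in the fit lacking day 0 replicate 2, to 73.0%, 65.4% and 66.4% in the fits lacking day 1 replicate 1, 2 or 3, and to 64.4% in the replicate block. The cause of these shifts was not tested. For day 1 against the later days (1551 calls), DESeq2 gave 2672 and limma-voom 5075, and leaving out 1 library gave 500 to 2150, with 500 without day 1 replicate 1 and 618 without day 1 replicate 2.

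Replicates carry the numbers 1 to 3 at each day with no stated meaning. Deviations from the group means correlated at 0.392, 0.0688 and 0.414 between day 0 and day 1 libraries of the same number. Day 1 replicate 2 correlated best with day 0 replicate 3 (0.122). Day 0 replicate 1 with day 1 replicate 3 gave -0.292, and day 0 replicate 3 with day 1 replicate 1 gave -0.494. On principal component 2, replicates 1, 2 and 3 lay at -42.5, -24.8 and 23.4 at day 0 and at -30.2, 17.0 and 57.1 at day 1. Whether the numbers mark pairs is not stated, so they entered only an alternative fit. With the number as a block, 862 genes were called, 555 higher and 307 lower (417 at least 2-fold).

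Of the 256 genes named, 194 were called, and 184 of these were called without day 0 replicate 1. The 10 that lost the call there were Adm, Aloxe3, Arg1, Ccne2, Cd209f, Fcer1a, Hgf, Hsd11b1, Lrig1 and mt-Nd1, at edgeR adjusted p between 0.0513 and 0.0708. Calls were lost by 173 and 149 genes in the fits lacking day 0 replicate 2 or 3, by 148, 105 and 93 in those lacking day 1 replicate 1, 2 or 3, by 48 in the fit of the 6 libraries alone, by 35 in the replicate block, by 1 (Gm6768) under limma-voom, by 28 without the filter and 2 (Gapdh and Gbp10) with copies summed, where 2 others (Krt14 and Retnla) gained one, and no named gene lost one under scaling by the median of ratios or by DESeq2, which gave 254 of them an adjusted p. Over the fits lacking 1 library, the log2 fold change of 3 uncalled genes changed sign, Mpo (-0.57 to 0.089), Ncf4 (-0.59 to 0.12) and Ddit3 (-0.19 to 0.059). When replicate 1 stood alone for day 0, signs changed for the uncalled Acta2 (-0.34), Atf6 (-0.00114), Ddit3 (0.086), Fos (-0.17), Ncf4 (0.78) and Ncoa4 (-0.066) and for the called copies Gm6768 (0.26) and Gm13394 (1.36). Summed with Gapdh, Gm13394 stood at 0.29. The cause was not tested. Means below 1 CPM in either group rest on few counts, at day 0 those of Saa1, Saa2, Fgf23, Csf3, Cxcr1, Ly6g, Il11, Il19, Il24, Tnfsf11, Stfa2l1, Defb4, Foxp3 and Mpo, and at day 1 also those of Eomes, Gbp10, Gm6768, Igkc, Islr2, Jchain and Sult1e1.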

Other observations

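Several further called genes with a large fold change or a large difference in CPM belong to none of the lists. Islr2, an immunoglobulin and leucine-rich repeat protein, had 2.96, 11.7 and 12.6 CPM at day 0 and 0.927, 0.693 and 0.861 CPM at day 1, lower in each day 1 library (log2 fold change -3.45 ± 0.77, adjusted p = 0.0232). Mylk4, a myosin kinase of striated muscle, had 19.1, 38.6 and 22.8 CPM at day 0 and 4.56, 4.797 and 3.57 CPM at day 1 (log2 fold change -2.64 ± 0.71, adjusted p = 0.0446), beside skeletal muscle genes whose summed level overlapped between the days at 11616 to 18292 and 9967 to 14092 CPM. The part of muscle in this difference was not tested. Glt8d2, a glycosyltransferase-domain protein, fell by 2.42 ± 0.50. Serpina3n, a serpin that inhibits neutrophil and mast cell proteases, had 439, 219 and 190.1 CPM at day 0 and 1220.5, 1186 and 799 CPM at day 1, higher in each day 1 library (log2 fold change 1.92 ± 0.41, adjusted p = 0.0205). Apoe, the lipid carrier of macrophages and keratinocytes, had 2779, 3946 and 3765 CPM at day 0 and 1690.3, 1616 and 2458 CPM at day 1, lower in each day 1 library (log2 fold change -0.86 ± 0.19, adjusted p = 0.0211).

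Adipocyte genes, which the cleaning of the skin should have reduced, summed to 4526 to 5891 CPM at day 0 and 4199 to 6282 CPM at day 1, and of 20 edgeR and DESeq2 called none, 1 had an unadjusted p under 0.05 and limma-voom called 3. Nek6, a mitotic kinase, and Snx6, a retromer subunit, kept their calls in all 6 fits without 1 library. Nek6 had 23.9, 18.2 and 19.99 CPM at day 0 and 60.5, 58.1 and 51.2 CPM at day 1 (log2 fold change 1.45 ± 0.19, adjusted p = 0.005).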
